A study of Mus musculus with 9 samples.

Results

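The 5 genes grouped as estrogen-induced secretory products of the uterine epithelium, Ltf, Lcn2, A2m, Clca3 and Greb1, were followed through every library of a mouse uterus RNA-Seq experiment. They were taken by gene symbol, and had been chosen by their higher FPKM in the Wnk1d/d libraries described here, so their differences between genotypes are given as a description, without a test. All 5 were found, among 31274 entries of the FPKM table. FPKM is the number of sequenced fragments per kilobase of transcript, scaled to the fragments of the library. It is a relative level, so a comparison between libraries also depends on what else each library holds.

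Whole uteri were taken on pseudopregnancy day 4.5, the receptive phase, from C57BL/6 females aged 6 to 10 weeks that had been mated with vasectomized males, with 1 library for each of 4 Wnk1f/f and 5 Wnk1d/d mice. Both genotypes carry Wnk1 alleles with exon 2 flanked by loxP sites. Wnk1d/d mice also carry Cre recombinase under the progesterone receptor gene (PGR-Cre), which removes that exon in cells that express the receptor, whereas Wnk1f/f mice carry no Cre. Cells without the progesterone receptor, such as those of blood vessels and the immune system, therefore keep Wnk1. In such bulk tissue, fewer cells of a type and less RNA per cell cannot be told apart. Likewise, loss of exon 2 and presence of Cre at the receptor gene cannot be told apart, since only Wnk1d/d mice carry Cre.

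Estrogen drives growth and secretion of the uterine epithelium and, as background, the secreted iron-binding protein lactoferrin, encoded by Ltf, is a classic readout of that response in the mouse. Estrogen receptor alpha binds DNA at paired half-sites with the core GGTCA, and progesterone opposes much of the epithelial response around the time the uterus becomes receptive. All but Greb1 code for secreted products: lactoferrin and lipocalin 2 (Lcn2) withhold iron from bacteria, alpha-2-macroglobulin (A2m) traps proteases in body fluids, and Clca3 encodes a secreted protein of mucous epithelia. Greb1 encodes an intracellular cofactor of the estrogen receptor, so the description as a secretory protein does not cover it.

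The genes lie on 5 chromosomes. On mm10 with GENCODE release M21, Ltf spans chr9:111019271-111042767 on the plus strand, Lcn2 chr2:32384633-32388252 on the minus strand, A2m chr6:121635376-121679227 on the plus strand, Clca3 chr3:145003817-145032776 on the minus strand and Greb1 chr12:16670615-16800886 on the minus strand. The gene that the table calls Clca3 is now named Clca1, and Clca3 is a RefSeq synonym of that gene alone. Greb1 overlaps an antisense gene and a microRNA gene that have no entry of their own in the table, and whether the counting used strand is not given in the sources used here.

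The promoters of Ltf, Lcn2 and Greb1 are shown because the genes are grouped as estrogen-induced, and estrogen receptor half-sites could be looked for in them. They are RefSeq sequences on GRCm38.p6 that run from 250 bases before to 50 bases after an annotated start site, 5′ to 3′ on the strand of the gene, and capitals mark each GGTCA, or TGACC where the half-site is on the other strand. The windows are chr9:111019042-111019341 (plus strand) for Ltf, chr2:32387690-32387989 (minus strand) for Lcn2, chr12:16800837-16801136 (minus strand) for the first start site of Greb1 and chr12:16757190-16757489 (minus strand) for the second. A2m and Clca3 are named only.
Ltf: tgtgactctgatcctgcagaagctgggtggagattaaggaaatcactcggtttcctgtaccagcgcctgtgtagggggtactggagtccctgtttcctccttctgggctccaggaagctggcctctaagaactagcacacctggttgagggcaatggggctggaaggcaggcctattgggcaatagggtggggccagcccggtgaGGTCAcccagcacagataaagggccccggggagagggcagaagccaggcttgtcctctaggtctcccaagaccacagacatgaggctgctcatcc
Lcn2: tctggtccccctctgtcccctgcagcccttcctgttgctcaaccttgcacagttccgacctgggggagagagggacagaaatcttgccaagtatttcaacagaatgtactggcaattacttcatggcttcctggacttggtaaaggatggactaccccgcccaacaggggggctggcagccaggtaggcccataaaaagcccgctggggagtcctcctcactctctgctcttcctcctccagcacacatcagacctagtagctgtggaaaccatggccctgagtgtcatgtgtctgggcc
Greb1, first start site: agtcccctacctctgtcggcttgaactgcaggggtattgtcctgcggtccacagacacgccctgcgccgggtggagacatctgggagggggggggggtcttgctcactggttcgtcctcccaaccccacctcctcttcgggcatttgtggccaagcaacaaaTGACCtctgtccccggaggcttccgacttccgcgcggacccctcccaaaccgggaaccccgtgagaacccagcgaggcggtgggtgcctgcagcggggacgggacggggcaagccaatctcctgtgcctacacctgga
Greb1, second start site: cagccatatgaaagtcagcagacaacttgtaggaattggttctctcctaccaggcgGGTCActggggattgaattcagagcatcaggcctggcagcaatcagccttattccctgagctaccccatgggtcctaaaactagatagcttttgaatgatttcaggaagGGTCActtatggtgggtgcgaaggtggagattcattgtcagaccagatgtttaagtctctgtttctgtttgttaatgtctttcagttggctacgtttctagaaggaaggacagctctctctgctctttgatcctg

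The Ltf window held 1 half-site, GGTCA at position -45 counted from the start site, with G and C making up 58.7% of its bases. The Lcn2 window held none, at 56.3% G and C. That window lies inside the span given above for the gene, so bases before the GENCODE start of Lcn2 were not searched. Of the Greb1 windows, the first held TGACC at position -88 (65.3% G and C), and the second held GGTCA at positions -194 and -85 (46.3% G and C). A half-site in a window of this length is common: 40.5% of 32851 promoter windows had at least 1 on either strand, and their median G and C content was 52.7%. A full palindrome, GGTCA and TGACC with 3 bases between them, was in 0.07% of all windows and in none of those shown, and the letters TATAAA, searched on both strands, were in 13.6% of all windows and also in none of those shown. These matches describe the letters only and do not show binding.

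The targeted gene and the libraries were checked first. Wnk1, a kinase that regulates ion transport, stood at 44.92, 43.41, 47.32 and 45.52 FPKM in Wnk1f/f libraries 1 to 4 and at 33.94, 29.85, 31.0, 30.16 and 31.27 FPKM in Wnk1d/d libraries 1 to 5. Each Wnk1d/d library was below every Wnk1f/f library, and the ratio of means was 0.69 (difference in log2(FPKM + 1) -0.52, SE 0.06, limma adjusted p = 0.00167). The means differed by less than the 1.5-fold used below to call a gene, so Wnk1 was not called. FPKM is given for the gene as a whole, so the ratio does not measure how much of exon 2 was removed. An exact two-sided permutation test on the size of the difference in means gave p = 0.0079, the smallest that 4 against 5 libraries allow, and doubling the one-sided p gave 0.016. The size of the difference was chosen as the statistic after the doubled value had been seen. The absolute depth of the libraries is unknown. The worth of 1 fragment was read from steps in the low FPKM values of 18 entries, in a range chosen after several were tried. It differed by at most 1.37-fold between libraries. Entries whose detected values differed widely between libraries had been left out, so a large difference in depth could not have shown. Whether depth was similar was therefore not tested. Median log2(FPKM + 1) was between 3.79 and 3.82 in all 9 libraries, although 1 entry took 70.3% of the summed FPKM in Wnk1d/d library 4.

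A gene was tested where either genotype averaged more than 1 FPKM, which left 14728 genes. It was called where the limma adjusted p was under 0.05 and the mean FPKM differed by 1.5-fold or more. On these criteria 10.3% of the genes were called, 5.09% as higher and 5.18% as lower in Wnk1d/d uteri. The genotypes did not overlap in 19.9% of the genes, and in 9.27% every Wnk1d/d library was above every Wnk1f/f library. All 5 genes passed this filter, Clca3 only through its Wnk1d/d libraries. Of the 5, 4 were among the genes called higher, the exception being Clca3, and in all 5 every Wnk1d/d library was above every Wnk1f/f library. The genes had been chosen for this difference, so nothing is read from these counts.

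Ltf had the highest level of the 5 in Wnk1d/d uteri. It measured 23.19, 41.96, 46.81 and 31.93 FPKM in Wnk1f/f libraries 1 to 4 and 1617.3, 993.36, 730.58, 300.45 and 384.33 FPKM in Wnk1d/d libraries 1 to 5. The genotypes were far apart, with the lowest Wnk1d/d library 6.42 times the highest Wnk1f/f library. The means were 36.0 ± 10.5 (SD, n = 4) and 805 ± 532 FPKM (SD, n = 5), a ratio of 22.4, and the difference in log2(FPKM + 1) was 4.23 (SE 0.46). By mean FPKM, Ltf ranked 3036 of the 14728 genes in Wnk1f/f uteri and 73 in Wnk1d/d uteri. Its Wnk1d/d libraries also differed widely among themselves, with the highest 5.38 times the lowest, whereas the Wnk1f/f libraries spanned 2.02-fold.

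Lcn2, which binds the iron-carrying siderophores of bacteria, was next in level. Its values were 20.5, 33.06, 38.75 and 20.37 FPKM in the Wnk1f/f libraries and 328.02, 313.99, 384.38, 174.76 and 143.45 FPKM in the Wnk1d/d libraries. Libraries 1, 2 and 3 formed a high group among the Wnk1d/d mice and libraries 4 and 5 a lower one, still 3.70 times or more above the highest Wnk1f/f library. The means were 28.2 ± 9.23 (SD, n = 4) and 269 ± 104 FPKM (SD, n = 5), a ratio of 9.55, and the log2(FPKM + 1) difference was 3.16 (SE 0.32). Lcn2 moved from rank 3947 to rank 248 by mean FPKM.

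A2m was close to 1 FPKM in the control uteri, at 0.77, 0.88, 1.95 and 0.92 FPKM, and stood at 16.11, 27.34, 17.96, 22.77 and 14.55 FPKM in the Wnk1d/d libraries. The Wnk1d/d libraries were the most even of the 4 secreted products, within 1.88-fold of each other, and the lowest was 7.46 times the highest Wnk1f/f library. The means were 1.13 ± 0.55 (SD, n = 4) and 19.7 ± 5.25 FPKM (SD, n = 5), a ratio of 17.5, and the log2(FPKM + 1) difference was 3.28 (SE 0.21). Since 1 was added before the logarithm, that difference understates the change of a gene so low in the controls, and with 0.1 added it was 4.06. A2m is also a plasma protein made by the liver, so liver transcripts were looked at beside it. Albumin (Alb) reached 77.65 FPKM in Wnk1f/f library 4 and was at most 1.5 FPKM in the other 8 libraries, and A2m in Wnk1f/f library 4 was 0.92 FPKM. Of 14 liver and plasma protein genes, all tested but 9 of them only through their Wnk1f/f mean, 1 rose, the hemoglobin-binding haptoglobin (Hp, log2 difference 1.40, SE 0.26, limma adjusted p = 0.00842), and none fell. Their summed level was 59.6 to 302 FPKM in Wnk1f/f and 189 to 206 FPKM in Wnk1d/d libraries.

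Clca3 was nearly silent in the controls, at 0.10, 0.06, 0.06 and 0.05 FPKM. In the Wnk1d/d libraries it was 66.16, 1.05, 4.63, 0.18 and 0.39 FPKM, so that library 1 alone carried most of the signal and library 4 lay only 1.80-fold above the highest control. The means of 0.0675 ± 0.0222 (SD, n = 4) and 14.5 ± 28.9 FPKM (SD, n = 5) gave a ratio of 215, but the ratio of medians was 17.5, and without Wnk1d/d library 1 the Wnk1d/d mean was 1.56 FPKM and the ratio of means 23.1. The log2(FPKM + 1) difference was 1.97 (SE 1.05) with all libraries and 0.97 without that library, and it was 3.71 with 0.1 and 4.65 with 0.01 added in place of 1. Fold values against such low control levels rest on few fragments.

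Greb1 had the smallest ratio of means of the 5. It measured 8.61, 4.66, 5.32 and 11.31 FPKM in the Wnk1f/f libraries and 12.15, 22.41, 16.48, 13.13 and 15.39 FPKM in the Wnk1d/d libraries. The groups only just stayed apart, since the lowest Wnk1d/d library was 1.07 times the highest Wnk1f/f library. The means were 7.47 ± 3.09 (SD, n = 4) and 15.9 ± 4.02 FPKM (SD, n = 5), a ratio of 2.13, with a log2(FPKM + 1) difference of 1.04 (SE 0.25). Without Wnk1d/d library 1 that difference was 1.12, above the 0.97 of Clca3.

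**Figure D1:**
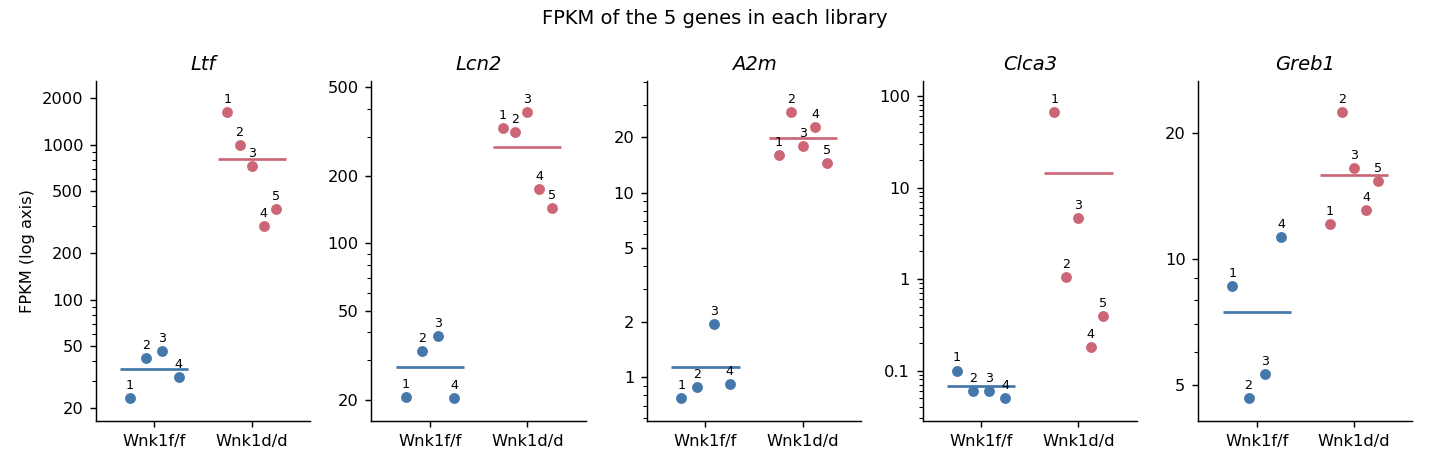
FPKM on log axes, with a scale of its own for each gene, for Ltf, Lcn2, A2m, Clca3 and Greb1 in 4 Wnk1f/f (blue) and 5 Wnk1d/d (red) libraries; points are libraries with their replicate numbers and lines are group means. All Wnk1d/d points lie above all Wnk1f/f points, by 7.46-fold at the nearest for A2m and by 1.07-fold for Greb1, and the Clca3 mean is set by Wnk1d/d library 1 at 66.16 FPKM.

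The 5 genes did not rise and fall together among the Wnk1d/d libraries. From highest to lowest, the libraries were ordered 1, 2, 3, 5, 4 for Ltf, 3, 1, 2, 4, 5 for Lcn2 and 1, 3, 2, 5, 4 for Clca3, so libraries 1, 2 and 3 held the 3 highest values of each of these. The order was 2, 4, 3, 1, 5 for A2m and 2, 3, 5, 4, 1 for Greb1. Wnk1d/d library 1 thus had the highest Ltf and Clca3 and the lowest Greb1 level. The SD of log2(FPKM + 1) among Wnk1d/d libraries was 2.41 for Clca3, 0.99 for Ltf, 0.62 for Lcn2, 0.35 for A2m and 0.32 for Greb1. Among Wnk1f/f libraries it was 0.03, 0.44, 0.46, 0.34 and 0.52 in the same order. The added 1 narrows this spread for genes near 0 FPKM: A2m had about the same SD in both genotypes on that scale but spanned 2.53-fold in the Wnk1f/f and 1.88-fold in the Wnk1d/d libraries as FPKM. In the controls, Ltf, Lcn2 and A2m were highest in library 3 and Greb1 was highest in library 4.

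**Figure D2:**
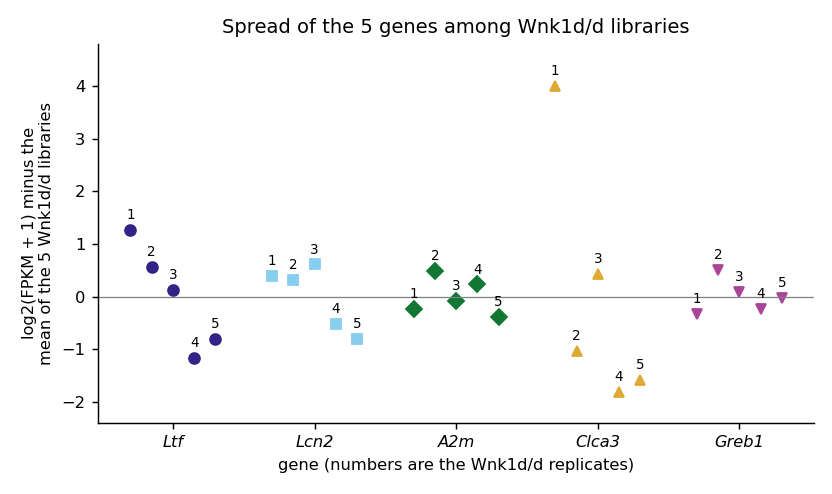
Deviation of each Wnk1d/d library from the mean of the 5 Wnk1d/d libraries in log2(FPKM + 1), for each gene, with the replicate number beside each point. Libraries 1, 2 and 3 are the highest 3 for Ltf, Lcn2 and Clca3, whereas A2m is highest in libraries 2, 4 and 3 and Greb1 in libraries 2, 3 and 5.

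The grouping of libraries 1, 2 and 3 was noticed in these genes and then counted elsewhere. Among 14502 tested genes for which a highest 3 could be set, it held for 1460 (10.1%), and among 746 genes called higher it held for 133 (17.8%). It also held for 10 of 20 epithelial marker genes, for 4 of 8 macrophage marker genes, for 0 of 6 smooth muscle marker genes and for 0 of 6 neutrophil marker genes. The pattern was therefore shared with genes outside the set.

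Likeness between genes was measured as the root mean square difference over the 9 libraries of log2(FPKM + 1), centred on the mean of each gene, so that 0 would be an identical pattern. The closest members were Lcn2 and A2m (0.47), then Ltf and Lcn2 (0.68) and Ltf and A2m (0.87). Greb1 was 1.21 from A2m, 1.26 from Lcn2 and 1.80 from Ltf. Clca3 was 1.53 or more from each of the others. The measure takes in the size of the difference between genotypes, for which the genes were chosen.

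Among all other tested genes, those nearest to Ltf were Cbr2 (carbonyl reductase 2, 0.73), Fcgbp (a mucus protein that binds the Fc part of IgG, 0.77) and Sprr2g (a small proline-rich cornified envelope protein, 0.79). Cbr2 measured 23.03, 57.29, 66.63 and 18.13 FPKM in the Wnk1f/f libraries and 693.52, 316.35, 304.98, 140.38 and 246.30 FPKM in the Wnk1d/d libraries. It had the same order of Wnk1d/d libraries as Ltf. The nearest to Lcn2 were Alpl (alkaline phosphatase, 0.33), Fcgbp (0.46) and Cbr2 (0.51). Alpl stood at 1.94, 3.73, 3.86 and 3.28 FPKM in the Wnk1f/f libraries and at 32.03, 26.52, 40.18, 21.10 and 19.73 FPKM in the Wnk1d/d libraries. The order of the Wnk1d/d libraries, but not of the Wnk1f/f libraries, was the same as for Lcn2. Alpl was also nearest to A2m (0.49), ahead of Aoc1 (a diamine oxidase, 0.60) and Ptpn5 (a tyrosine phosphatase, 0.64).

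Clca3 was nearest to Mir1966 (0.79), a microRNA entry listed at 83.32 FPKM in Wnk1d/d library 1 and at 0 in the other 8 libraries, so that match rests on 1 library. The next were Sprr2b (0.95), at 32.11 FPKM in Wnk1d/d library 1 and 1.91 to 17.44 FPKM in the other Wnk1d/d libraries, and BC048679 (0.97). Greb1 was nearest to 1700024P16Rik (0.19), Stc2 (stanniocalcin 2, a secreted glycoprotein, 0.27) and Orm2 (orosomucoid 2, a plasma protein of the lipocalin family, 0.28). Stc2 measured 6.79 to 10.82 FPKM in Wnk1f/f and 17.00 to 28.93 FPKM in Wnk1d/d libraries, and Orm2 0.16 to 0.39 and 1.12 to 2.60 FPKM. Both were highest in Wnk1d/d library 2, as Greb1 was.

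**Figure D3:**
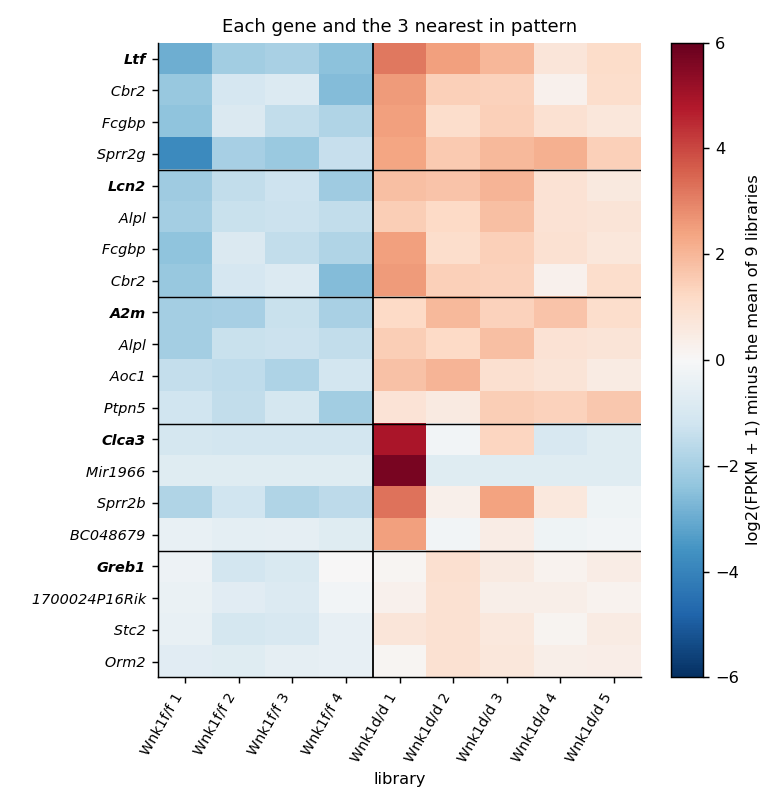
Log2(FPKM + 1) minus the mean of the 9 libraries, as colour, for each of the 5 genes (bold) and, below each, the 3 other genes with the smallest root mean square difference from it; columns are libraries and the vertical line separates Wnk1f/f from Wnk1d/d. Alpl (0.33 from Lcn2) follows its gene closely, whereas the rows under Clca3 share mainly the high value of Wnk1d/d library 1.

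Other genes that estrogen induces in the uterus were then counted from a list. The list was drawn up with earlier results of these data known, so its counts are a description. It held 36 genes, without the 5. Of these, 34 were in the table and 25 passed the filter. In Wnk1d/d uteri 14 of the 25 rose and 1 fell, where 5.09% of all genes tested were called higher and 5.18% lower. The median log2(FPKM + 1) difference was 1.47, beside 0.00 over all genes tested. Most of the 14 belong to the Sprr and Padi gene families, so their rises may not be independent of each other. Of those that rose, 4 (Sprr1a, Sprr2a1, Sprr2b and Sprr2e) averaged under 1 FPKM in Wnk1f/f uteri and passed the filter only through the Wnk1d/d libraries, where they were high. The median of the other 21 was 1.39. The small proline-rich proteins of the cornified envelope were prominent. Sprr2f was 5.57 ± 1.07 FPKM (SD, n = 4) in Wnk1f/f and 596 ± 387 FPKM (SD, n = 5) in Wnk1d/d uteri (log2 difference 6.27, SE 0.43, limma adjusted p = 0.0003). Sprr2g (4.25), Sprr2b (2.87), Sprr2a1 (2.11, listed at 0 in every Wnk1f/f library), Sprr1a (1.72) and Sprr2e (1.49) also rose on that scale. The Sprr2 genes are near-identical copies, and how the counting shared reads between them is not given in the sources used here, so their single values are uncertain.

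The list also held genes closer in function to the secreted products. The complement components C3 (log2 difference 1.39, SE 0.39, limma adjusted p = 0.0333) and Cfb (1.85, SE 0.41, adjusted p = 0.0147) rose, as did the membrane mucin Muc4 (1.93, SE 0.23, adjusted p = 0.00209) and the secreted phosphoprotein Spp1 (1.42, SE 0.39, adjusted p = 0.0297). C3 measured 117 ± 46.7 FPKM in Wnk1f/f (SD, n = 4) and 319 ± 150 FPKM in Wnk1d/d uteri (SD, n = 5). The protein-citrullinating enzymes Padi1, Padi2 and Padi4 rose by 1.80, 2.05 and 1.37 on the log2 scale, and the gap junction gene Gjb2 by 1.81. The growth factor gene Tgfa fell by 0.60 (SE 0.16, adjusted p = 0.0267). The other 10 tested genes were not called. Among them the epididymal secretory protein gene Wfdc2 was at 1050 ± 205 FPKM (SD, n = 4) and 1400 ± 471 FPKM (SD, n = 5), with a limma adjusted p of 0.274. Libraries 1, 2 and 3 were the highest 3 Wnk1d/d libraries for 11 of the 25 genes and for 7 of the 14 that rose.

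**Figure D4:**
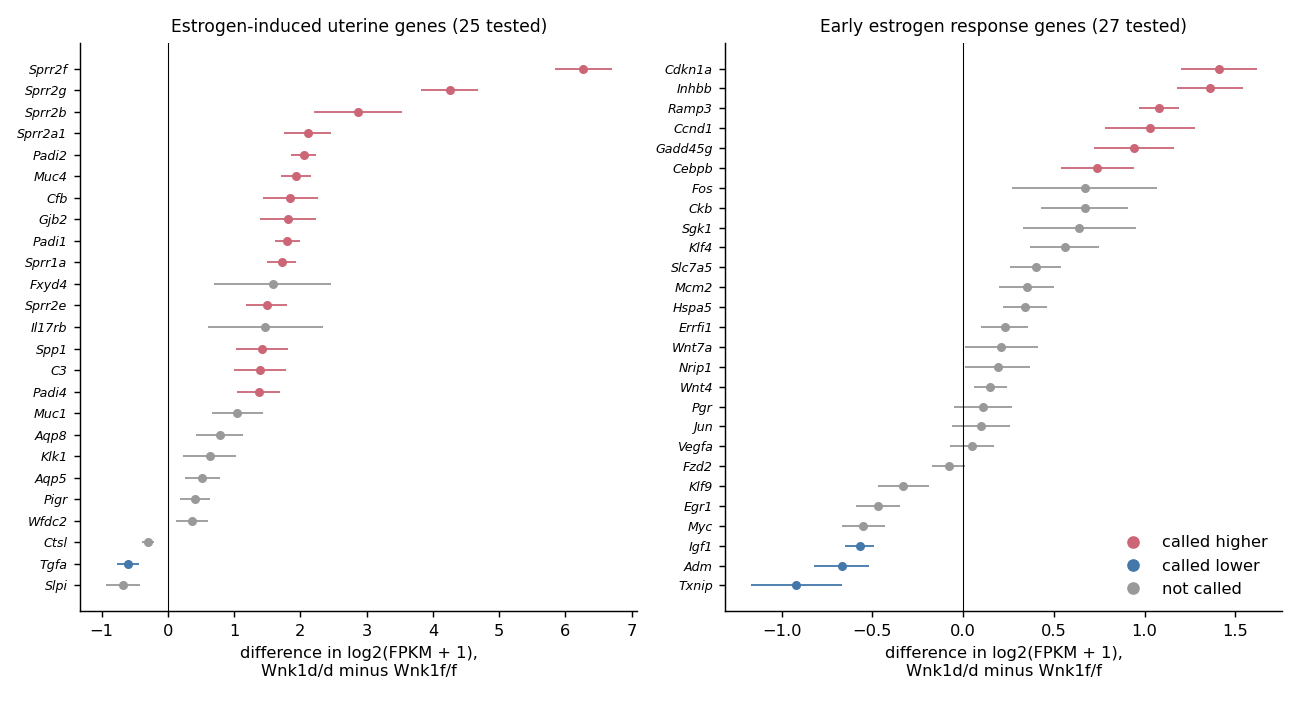
Difference in log2(FPKM + 1), Wnk1d/d minus Wnk1f/f, with bars of 1 SE, for the tested genes of 2 lists: estrogen-induced uterine genes (left, 14 of 25 called higher and 1 lower) and early estrogen response genes (right, 6 of 27 higher and 3 lower). The scales of the panels differ, and the left panel reaches 6.27 for Sprr2f.

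Early estrogen response genes, which include growth and cell cycle regulators, changed in both directions. Of 28 on the list 27 were tested, of which 6 rose and 3 fell, with a median log2 difference of 0.23. Those that rose were the cyclin-dependent kinase inhibitor Cdkn1a (1.41), the inhibin beta B gene Inhbb (1.36), the receptor activity modifier Ramp3 (1.08), the cyclin Ccnd1 (1.03), the stress response gene Gadd45g (0.94) and the transcription factor Cebpb (0.74). Those that fell were the thioredoxin-binding gene Txnip (-0.92, SE 0.25, limma adjusted p = 0.0287), the vasodilator gene Adm (-0.67, SE 0.15, adjusted p = 0.0167) and the growth factor Igf1, which estrogen induces in the uterus (-0.57, SE 0.08, adjusted p = 0.0043). Without Wnk1d/d library 3, 5 genes of this list were called in place of 9.

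The receptors themselves were read next. Of 10 tested of 16 receptor and coregulator genes, none was called by limma, and 2 had an unadjusted p under 0.05. The estrogen receptor gene Esr1, whose product Greb1 binds, was 41.3 ± 6.56 FPKM in Wnk1f/f (SD, n = 4) and 50.2 ± 6.42 FPKM in Wnk1d/d uteri (SD, n = 5), a log2 difference of 0.28 (SE 0.12, limma adjusted p = 0.128). The progesterone receptor gene Pgr, which drives the Cre, was 16.6 ± 4.01 and 17.8 ± 3.06 FPKM (log2 difference 0.11, SE 0.16, limma adjusted p = 0.656). Of 20 tested progesterone-induced genes, 5 fell (Ptch1, Il13ra2, Fst, Calca and Hoxa11, by 0.59 to 0.92 on the log2 scale) and none rose by limma. The median was 0.02. An unadjusted limma p under 0.05 was found for 10 of the 20, of which 2 were higher and the rest lower in Wnk1d/d uteri.

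Receptors and partners of the secreted products came next. Of 17 listed genes 11 were tested, and 1 was called: Cd14, a coreceptor for bacterial lipopolysaccharide, was 38.47 to 61.48 FPKM in Wnk1f/f and 82.61 to 131.58 FPKM in Wnk1d/d libraries, a log2 difference of 1.02 (SE 0.19, limma adjusted p = 0.00866). Lrp1, a receptor for A2m with bound protease, was 31.6 ± 4.78 FPKM (SD, n = 4) and 28.1 ± 3.84 FPKM (SD, n = 5). Slc22a17, a receptor for Lcn2, was 31.25 to 33.53 FPKM in Wnk1f/f and 19.54 to 29.31 FPKM in Wnk1d/d libraries and was not called, since the ratio of means was above the limit for a decrease (limma adjusted p = 0.0289). The cytokines Il17a and Il22, which are known to induce Lcn2 in epithelia, were at 0 in at least 8 of 9 libraries, and the highest values in any library were 0.62 FPKM for Il17a in Wnk1f/f library 4 and 0.03 FPKM for Il22.

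Among 40 relatives of the 5 genes, 16 of the 31 found in the table were tested, and 4 rose and 1 fell. Those that rose were the lipocalin family members Orm1 (log2 difference 1.99), Orm2 (1.10) and Ptgds (0.76) and the A2m relative C3, and the one that fell was Cd109 (-0.57), a membrane protein of the A2m family. The 3 lipocalin family members averaged under 1 FPKM in Wnk1f/f uteri (0.82, 0.272 and 0.325 FPKM) and passed the filter only through the Wnk1d/d libraries, where they were high. Transferrin (Trf), the plasma relative of Ltf, was 30.1 ± 6.75 FPKM in Wnk1f/f (SD, n = 4) and 22.6 ± 1.16 FPKM in Wnk1d/d uteri (SD, n = 5), with a limma adjusted p of 0.0702. The entry that the table calls Clca1, which is now named Clca3a1, was at 13.64 to 33.08 FPKM in Wnk1f/f and 8.61 to 26.68 FPKM in Wnk1d/d libraries, overlapping throughout, unlike Clca3. Greb1l, the paralog of Greb1, was 1.41 to 1.57 and 1.38 to 1.67 FPKM.

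Ltf and Lcn2 are also stored in the secondary granules of neutrophils, so neutrophil markers were set beside them. Of 20 listed markers, 18 were in the table and 6 passed the filter, of which limma called none higher (1 was higher at an unadjusted p under 0.05) and 1, Prtn3, lower (-0.57, SE 0.18, adjusted p = 0.0497), with a median of -0.27. Prtn3 was no longer called when Wnk1f/f library 2 or 4 or any 1 of the Wnk1d/d libraries was left out. Without the filter on low values, Mpo (0.25 to 0.58 FPKM in Wnk1f/f and 0.41 to 1.23 FPKM in Wnk1d/d libraries) and Ctsg (0.00 to 0.16 FPKM in Wnk1f/f and 0.32 to 0.57 FPKM in Wnk1d/d libraries) were called higher in its place, and Il1r2 was called higher with library weights or without Wnk1d/d library 2. The summed level was 151 to 275 FPKM in Wnk1f/f and 174 to 196 FPKM in Wnk1d/d libraries, of which Lyz2, shared with macrophages, made up most. Without Lyz2 it was 7.98 to 15.6 and 8.59 to 12.2 FPKM. Camp, Fcnb and Stfa2 were at 0 in every library. The 6 genes Camp, Ngp, Fcnb, Mmp8, Elane and Cxcr2 did not exceed 0.08 FPKM in any library, where Ltf and Lcn2 reached 1617.3 and 384.38 FPKM. These 6, and the sum without Lyz2, were picked after their values were seen. Other markers below the filter were not silent. S100a8 was 0.14 to 1.13 FPKM in Wnk1f/f (mean 0.665) and 0.40 to 1.59 FPKM in Wnk1d/d libraries (mean 0.982), and S100a9 was 0.19 to 1.35 FPKM (mean 0.493) and 0.17 to 3.49 FPKM (mean 0.976), with the highest value in Wnk1d/d library 4. The genotypes overlapped for both.

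**Figure D5:**
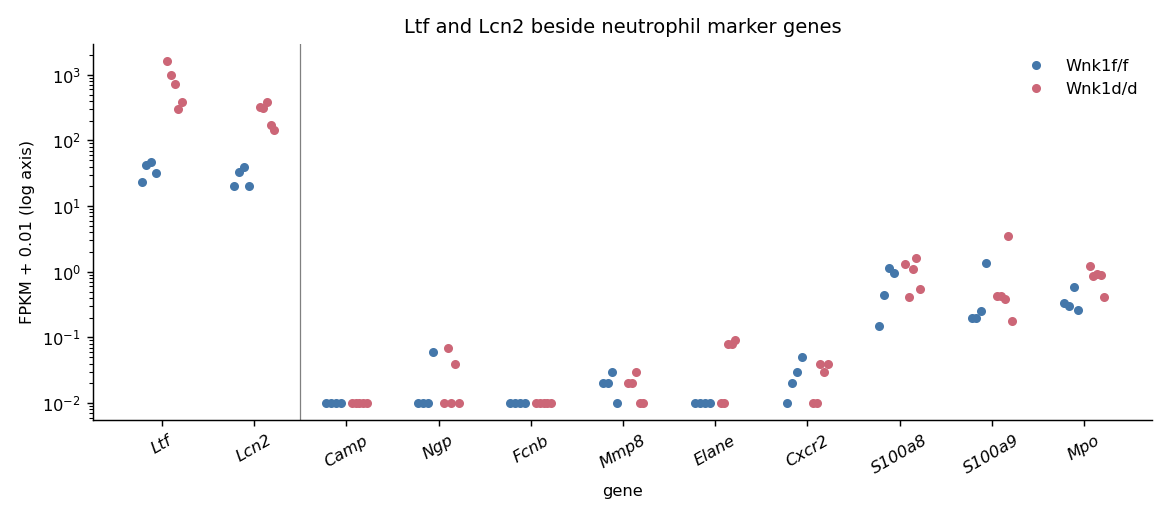
FPKM + 0.01 on a log axis for Ltf, Lcn2 and 9 neutrophil marker genes in Wnk1f/f (blue) and Wnk1d/d (red) libraries, 1 point a library. The 9 were picked from 18 markers once their values were known. Those left out include Lyz2 (141.07 to 259.05 FPKM over all libraries) and Ctsg, at 0.00 to 0.16 FPKM in Wnk1f/f and 0.32 to 0.57 FPKM in Wnk1d/d libraries. Camp, Ngp, Fcnb, Mmp8, Elane and Cxcr2 stay at or below 0.08 FPKM in all 9 libraries, S100a8, S100a9 and Mpo lie between 0.14 and 3.49 FPKM with both genotypes overlapping, and Ltf and Lcn2 lie between 20.37 and 1617.3 FPKM.

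The epithelium itself was represented by 20 marker genes, all tested, of which 4 rose and 3 fell, with a median log2 difference of 0.20. The pan-epithelial adhesion molecule Epcam was 125 ± 11.8 FPKM in Wnk1f/f (SD, n = 4) and 146 ± 10.8 FPKM in Wnk1d/d uteri (SD, n = 5), and the keratin Krt18 365 ± 66.5 and 347 ± 46.9 FPKM. Neither was called (limma adjusted p = 0.0872 and 0.765). Krt7 (0.87), Cldn7 (0.61), Elf3 (1.02) and Calb1 (2.01) rose, and the gland and epithelial secretory genes Spink3 (-2.61), Prss28 (-2.75) and Prss29 fell. Spink3 was 4250 ± 740 FPKM in Wnk1f/f (SD, n = 4) and 733 ± 254 FPKM in Wnk1d/d uteri (SD, n = 5). The summed level of the 20 was accordingly lower in Wnk1d/d libraries, at 3120 to 4620 FPKM against 8170 to 11700 FPKM. In Wnk1f/f libraries that sum was made up mostly of Spink3, Prss29 (mean 3550 FPKM, and 1360 FPKM in Wnk1d/d) and Prss28 (953 and 145 FPKM). Of the 20 markers, 15 had a log2 difference above 0, so the sum does not stand for the epithelium as a whole. The count of 7 depended on single libraries, and was 2 without Wnk1f/f library 1, 4 without Wnk1f/f library 3, and 3 without Wnk1f/f library 4, Wnk1d/d library 1 or Wnk1d/d library 3. No marker was called higher without Wnk1f/f library 1, Wnk1d/d library 1 or Wnk1d/d library 3, or without the filter on low values, whereas 2 or 3 were still called lower in each of these.

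Markers of other cells and regions moved as well, and their part in the values of the 5 genes was not tested. All 6 smooth muscle markers rose (median 1.19), and their sum was 2800 to 6370 FPKM in Wnk1f/f and 7210 to 13700 FPKM in Wnk1d/d libraries. Each of the 6 was highest in Wnk1d/d library 4 or 5, the libraries with the lowest Ltf, Lcn2 and Clca3 levels of that genotype. Of 12 goblet cell markers, which matter for Clca3, 4 were tested and 2 rose, Fcgbp (2.95) and the secretory cell transcription factor Creb3l1 (0.83). Agr2 was 47.2 ± 6.74 FPKM in Wnk1f/f (SD, n = 4) and 34.0 ± 9.61 FPKM in Wnk1d/d uteri (SD, n = 5). Neither Agr2 (log2 difference -0.50, limma adjusted p = 0.0926) nor Gcnt3 (1.01, adjusted p = 0.108) was called. The 8 markers that were not tested stayed below 1 FPKM in every library. Fcgbp was 190.32 FPKM in Wnk1d/d library 1 and 54.47 to 91.48 FPKM in the other Wnk1d/d libraries, while Spdef, a regulator of goblet cells, was at most 0.68 FPKM in any library. Of 10 oviduct and ciliated cell markers 5 were tested and 2 rose, Ovgp1 (2.07) and Rsph1 (0.61), and of 7 stroma markers Col1a1 rose (0.96) and Pdgfra (-0.78) and Hoxa11 (-0.59) fell. Limma called none of 3 tested of 14 stratified epithelium markers and none of 8 tested of 10 macrophage markers, of which 0 and 1 had an unadjusted p under 0.05.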

How the data were processed

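RNA of whole uteri was sequenced by the authors as paired-end reads of 75 nt, filtered at a mean quality of 20 and aligned to mm10, and the deposited values are FPKM per gene symbol and library, without pooling. The submitters' processing notes name TopHat2 2.0.4 and Cufflinks 2.0.2. For its Cuffdiff test, the study's methods name a later Cufflinks version. The gene annotation is not given in the sources used here. The 9 columns were mapped to mice by their labels, with 0 columns left over. Library numbers are those of the sample titles, and most columns of the deposited values carry another number. Each library is another mouse.

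FPKM was used as deposited, without fragment counts, so absolute depth is unknown and no counting intervals were given. The 14728 genes that averaged more than 1 FPKM in either genotype were compared on log2(FPKM + 1) with limma 3.58.1 in R 4.3.3 (trend, unpaired, all 9 libraries), with Benjamini-Hochberg adjustment over all of them. Genes said to have risen or fallen had an adjusted p under 0.05 and means that differed by 1.5-fold or more. The study's Cuffdiff test needs aligned reads and was not rerun. Wnk1 was also compared by an exact permutation test (SciPy 1.17.1, NumPy 2.4.6, pandas 2.3.3, Python 3.11.15).

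The 5 genes and all gene lists were chosen with earlier results of these data known. Genes were named by rule: the 5, Wnk1, the 3 nearest in pattern to each, and from each list those called and up to 4 others with the highest mean FPKM. Lrp1 as one of the 4 follows the rule, whereas Slc22a17, Il17a, Il22, Spdef, Greb1l, Ctsg, Il1r2, Camp, Ngp, Fcnb, Mmp8, Elane, Cxcr2, Stfa2, S100a8, S100a9 and Mpo were added once their values were known. Alternatives comprised other pseudocounts, filters, scalings, fits and fold criteria, a replicate block, and leaving out each library. For Wnk1 they were added after the data were seen.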

Additional observations from a re-analysis of the deposited data

Results flagged for a closer look

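Among 40 named genes, the highest or lowest library of a genotype was checked for a gap from the others that is large for the range of the group (Dixon's criterion), in 78 groups. It marked 8. Chance marks about 1 in 20 groups of genes picked without regard to such gaps, but some of these genes, among them Mir1966 and BC048679, were named for a pattern like that of Clca3, so the number is not to be set against that share. A2m was 1.95 FPKM in Wnk1f/f library 3, against 0.77 to 0.92 FPKM in the other Wnk1f/f libraries. Clca3 was 66.16 FPKM in Wnk1d/d library 1, against 0.18 to 4.63 FPKM in the other Wnk1d/d libraries. In that same library Fcgbp was 190.32 FPKM (54.47 to 91.48 in the others), Mir1966 was 83.32 FPKM (0 in the others), BC048679 was 10.24 FPKM (0.67 to 1.71) and Sprr1a was 5.67 FPKM (1.96 to 2.94). The gene 1700024P16Rik was 14.04 FPKM in Wnk1d/d library 2, against 8.49 to 9.31 FPKM. Cfb was 22.76 FPKM in Wnk1f/f library 1, against 48.16 to 52.26 FPKM.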

How the results depend on the processing

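No difference of the 5 genes changed direction under the alternatives given for them, which did not include a replicate block or library weights. In all 5, every Wnk1d/d library was above every Wnk1f/f library. Leaving out a library or changing the pseudocount therefore could not reverse a difference. Leaving out each library in turn gave log2 differences of 3.91 to 4.52 for Ltf, 3.01 to 3.37 for Lcn2, 3.16 to 3.45 for A2m, 0.97 to 2.42 for Clca3 and 0.87 to 1.24 for Greb1, and ratios of mean FPKM of 16.7 to 25.9, 8.52 to 10.9, 15.8 to 23.1, 23.1 to 268 and 1.89 to 2.57. A smaller pseudocount raised the A2m difference to 4.06 (0.1) and 4.18 (0.01) and that of Clca3 to 4.65 (0.01), and the Clca3 ratio of medians was 17.5. The 1513 genes called became 550 at a ratio of 2 and 3249 without a fold criterion, and 1019 to 1870 without a library. Replicate numbers come from the titles and name different mice. Deviations of same-numbered libraries correlated at -0.27 to 0.02 across genes, and 0 of 4 Wnk1f/f libraries correlated best with their own number. With the replicate number as a block, 218 genes were called, with 7 of the estrogen-induced, 3 of the early estrogen, 0 of the neutrophil and 1 of the epithelial genes, and Wnk1 had a log2 difference of -0.52 with a limma adjusted p of 0.0518. The sources used here give no pairing of mice by these numbers, and the block leaves Wnk1d/d library 5 without a partner. It also leaves less information on the spread, so the fall in calls is not read as a dependence on pairing. Without a block, leaving out each library gave 12 to 15 estrogen-induced, 5 to 10 early estrogen, 0 to 1 neutrophil and 2 to 6 epithelial genes, and -0.55 to -0.50 for Wnk1. Of the early estrogen genes, 4 were called at a ratio of 2. Without a filter 2 epithelial and 2 neutrophil genes were called, the latter (Mpo and Ctsg) as higher, and 0 neutrophil genes with quantile normalization, median scaling, a ratio of 2 or a minimum of 5 FPKM. The causes of these shifts were not tested. Unknown depth limits most what can be said of genes near 0 FPKM, Clca3 among them.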
